A study of Mus musculus with 2 samples.

Results

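Complement genes were followed through the cells of mouse tongue tumours. The set holds 9 genes, C3, C4b, Cfb, Cfd, C1s1, Serping1, C2, C3ar1 and C5ar1, found by symbol among the 31053 genes that both deposited libraries list. All 9 were listed. The tumours were tongue squamous cell carcinomas, a model of head and neck cancer (HNSCC), raised in wild type C57BL/6 mice with the carcinogen 4NQO (4-nitroquinoline 1-oxide). The animals of one group then received JQ1, a small molecule that blocks the acetyl-lysine pockets of BET bromodomain proteins, and those of the other group received a control treatment, both over 10 days. Both groups thus share genotype, strain, carcinogen and tissue. Each group is 1 single-cell library, and the sources used here do not give the number of mice behind it, their age or their sex. No value below has a replicate, none was tested, and every interval is a 95% interval that covers counting error only, not the spread between mice, tumours or preparations.

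Complement is a cascade of blood and tissue proteins that marks surfaces for removal and attracts leukocytes. In the classical route C1q with the proteases C1r and C1s cleaves C4 and then C2, which together form an enzyme that cleaves C3; in the alternative route factor B (Cfb), cleaved by factor D (Cfd), forms a second such enzyme. The C1 inhibitor Serping1 blocks C1r and C1s. Small fragments of C3 and of C5 signal through the receptors C3ar1 and C5ar1 on myeloid cells. The liver makes much of the circulating protein, and fibroblasts and macrophages are known local sources in tissues.

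The genes lie on 5 chromosomes (GRCm38, GENCODE M21 annotation). C3 is on the minus strand of chromosome 17 at chr17:57203970-57228136. C4b (chr17:34728380-34743882), Cfb (chr17:34856374-34862518) and C2 (chr17:34862604-34898265) are neighbours on the same strand of that chromosome. C1s1 (chr6:124530345-124542359) and C3ar1 (chr6:122847138-122856161) are on the minus strand of chromosome 6. Serping1 is at chr2:84765387-84775444 and C5ar1 at chr7:16246743-16259540, both on the minus strand, and Cfd is at chr10:79890853-79892655 on the plus strand. A further annotated gene, Gm20547, shares 79.5% of the exon bases of Cfb and 42.8% of those of C2 on the same strand. It was listed at 0 UMIs in all kept cells, and how reads in shared exons were assigned is not stated, so that the counts of Cfb and C2 are uncertain. The annotated antisense gene Gm16567 covers 18.4% of the exon bases of C1s1.

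Promoter sequences from RefSeq (GRCm38.p6) were on hand for 5 of the 9 genes, C3, Cfd, C1s1, C3ar1 and C5ar1. The 250 bases before the transcript start of C3 (chr17:57228137-57228386, minus strand) and of the first of 2 listed C1s1 starts (chr6:124542360-124542609, minus strand) are shown because these were the members of the set with a listed promoter that fibroblasts expressed. They read 5′ to 3′, and capitals mark a match to TTGCNNAA, the core of the C/EBP recognition sequence.
C3 promoter: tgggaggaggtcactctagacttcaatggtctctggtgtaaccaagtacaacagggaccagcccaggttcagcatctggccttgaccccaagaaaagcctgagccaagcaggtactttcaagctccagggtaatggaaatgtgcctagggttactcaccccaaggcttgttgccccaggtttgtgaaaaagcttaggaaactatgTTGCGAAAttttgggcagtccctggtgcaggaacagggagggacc
C1s1 promoter: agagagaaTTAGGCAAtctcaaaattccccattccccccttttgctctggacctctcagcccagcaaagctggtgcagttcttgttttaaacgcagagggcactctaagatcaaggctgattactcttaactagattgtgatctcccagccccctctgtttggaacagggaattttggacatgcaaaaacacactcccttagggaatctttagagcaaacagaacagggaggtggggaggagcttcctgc
The C3 match, TTGCGAAA, lies 45 bases before the start, and that of C1s1, TTAGGCAA, lies 242 bases before it and reads as the motif on the other strand. Over 32851 promoters of the same 250 bases, 9.56% hold this motif on one strand or the other. The other motifs searched on both strands were the NF-kappaB site (in 0.356% of promoters), GAAA repeated after 2 bases, the core of the interferon-stimulated response element (2.98%), the STAT site TTCNNNGAA (7.02%), TGANTCA of AP-1 (6.75%) and GGGCGG (32.7%). None of these was found in the windows of C3 and C1s1. The window of the second C1s1 start (chr6:124542322-124542571) held no match to any motif searched, TTGCNNAA included. The C3ar1 window held TGACTCA 22 bases and CCGCCC 76 bases before the start. A match describes the letters and does not show binding.

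The control library held 9754 barcodes and 118382532 UMIs (unique molecular identifiers, counted transcripts) and the JQ1 library 16233 barcodes and 99565417 UMIs. After filtering, 8150 control cells with a median of 11302.5 UMIs and 14044 JQ1 cells with a median of 3879 were kept. Cells were assigned to classes by the share of each class's marker genes they held, and no complement gene was a marker. This gave 849 control and 4659 JQ1 fibroblasts, 496 and 2052 endothelial cells, 58 and 136 macrophages, and 5261 and 1388 keratinocytes. Each class was led by its own markers, which follows from the assignment by the same lists and does not check it. The 12 fibroblast markers summed to 22929 CPM (a gene's UMIs divided by all UMIs of the class, on the usual CPM scale) in control fibroblasts, where the 12 keratinocyte markers summed to 266 CPM. Fibroblasts made up 10.4% of kept control and 33.2% of kept JQ1 cells, so that a level over all kept cells mixes composition with expression. C3 over all kept cells was 51.9 CPM in control against 329 CPM in JQ1, a ratio of 6.33, and Serping1 was 63.8 and 509 CPM. Within fibroblasts alone the ratios were 0.873 for C3 and 0.997 for Serping1, and all levels below are within a class. Of the barcode sequences, 40 occurred in both libraries.

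Levels in T cells were taken as a guide to free RNA in the droplets. The 213 control T cells held 0 UMIs of all 9 genes, which allows up to 5.74 CPM of each. The 344 JQ1 T cells (median 2505 UMIs, against 2061 in control) held C3 at 9.59 CPM (4.60 to 17.6), C4b at 4.79 CPM (1.56 to 11.2), C1s1 at 16.3 CPM (9.50 to 26.1) and Serping1 at 23.0 CPM (14.7 to 34.2). Fibroblast transcripts were thus counted outside fibroblasts in the JQ1 library, and T cell levels are given beside low levels in other classes. Keratinocytes were much deeper, with a median of 17330 UMIs in control and 11316 in JQ1. The share of free RNA in a cell depends on its depth. A keratinocyte level below that of T cells in CPM therefore does not show that it is free RNA. Gland RNA also differed: Muc5b, a secreted mucin, was at 17.4 CPM in control against 680.3 CPM in JQ1 fibroblasts. Its part in the fibroblast levels was not tested.

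Most members were counted mainly in fibroblasts. Of all C3 UMIs in kept cells, 81.3% in control against 91.1% in JQ1 lay in fibroblasts, and for Serping1 the shares were 82.1% and 83.5%. C4b followed with 90.3% and 79.1%, and in JQ1 a further 9.38% lay in Schwann cells, the glia of peripheral nerves. For C1s1 the control library differed from the JQ1 library: keratinocytes held 64.4% of its UMIs and fibroblasts 29.3% in control, against 2.89% and 80.7% in JQ1. C2 had the same shift, with 58.3% in keratinocytes in control and 3.87% in JQ1. These shares follow cell numbers and depth as well as level, since control keratinocytes were the most numerous and deepest class. The receptors lay in myeloid cells: macrophages held 75.8% and 76.1% of C3ar1 UMIs, and neutrophils 87.4% and 73.7% of C5ar1 UMIs.

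**Figure D1:**
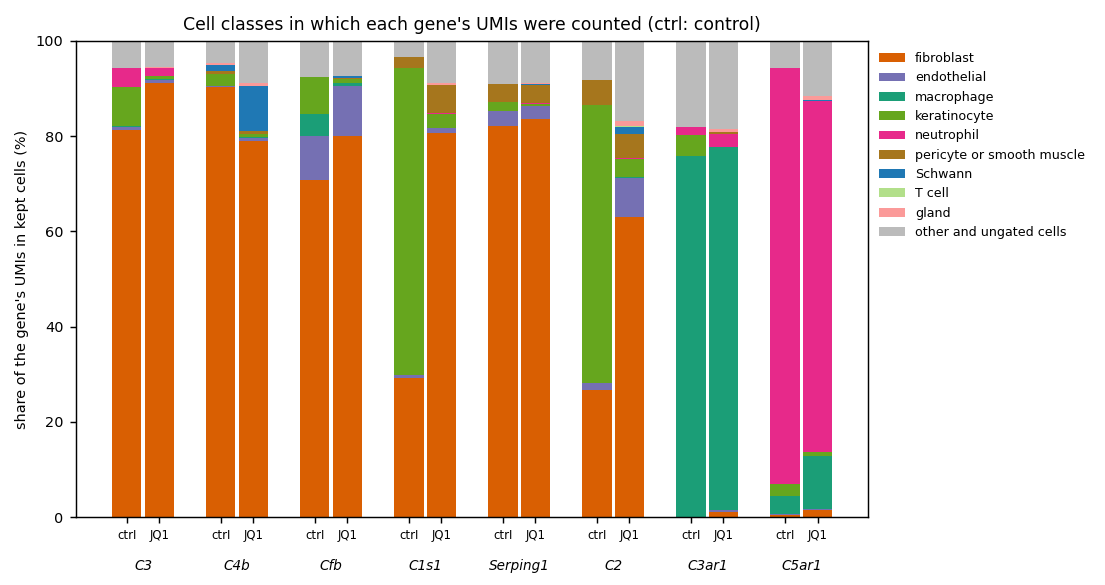
Share of each gene's UMIs in kept cells (vertical axis, %) by cell class (colours), with 1 bar for the control and 1 for the JQ1 library per gene; Cfd, with 3 UMIs in all, is left out. Fibroblasts fill most of the C3, C4b, Cfb and Serping1 bars, keratinocytes 64.4% of the control C1s1 bar, and macrophages and neutrophils most of the receptor bars.

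C1s1, the protease that cleaves C4 and C2, was at 585 CPM (559 to 612) in control against 629.5 CPM (619 to 640.1) in JQ1 fibroblasts. The ratio of JQ1 to control was 1.08 (1.03 to 1.13). Pericytes and smooth muscle cells came next, with 293 CPM (249 to 341) and 422 CPM (396 to 449). Keratinocytes held 42.7 CPM (41.4 to 44.0) in control against 26.0 CPM (23.8 to 28.4) in JQ1, far below fibroblasts in both. The control level there stood above the 0 UMIs of T cells of that library, and the JQ1 level lay just inside the counting interval of C1s1 in JQ1 T cells, while the Krt15 and Krt42 clusters of JQ1 keratinocytes, at 29.99 and 34.0 CPM, lay above it. Endothelial cells were at 17.1 CPM (12.1 to 23.5) and 17.0 CPM (14.6 to 19.8), the JQ1 value of the whole class again near that of T cells. Most of these UMIs lay in the cluster led by Selp and Sele, at 35.3 CPM in control and 31.7 CPM in JQ1, the latter above the T cell interval. The JQ1 level was 5.19 CPM in the cluster led by Flt1, 9.30 CPM in that led by Ccl21a and 12.7 CPM in that led by Ptprb.

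C4b, the C4 gene counted here, was at 210.1 CPM (195 to 226) in control against 186 CPM (180.0 to 191) in JQ1 fibroblasts, with a ratio of 0.884 (0.816 to 0.959). Schwann cells were the other class with a high level, at 202 CPM (101 to 361, 11 UMIs) from 28 control cells and 335 CPM (306 to 366, 483 UMIs) from 694 JQ1 cells. In control the fibroblast and Schwann levels did not differ beyond counting error, and in JQ1 the Schwann level was 1.80 times the fibroblast level (1.64 to 1.98). Endothelial cells, macrophages, keratinocytes, neutrophils and pericytes held at most 11.8 CPM in either library. The close copy C4a was not among the listed genes, and how reads of that copy were assigned is not stated.

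C2, the protease partner of C4, was counted with few UMIs. Fibroblasts held 26.9 CPM (21.7 to 33.1, 90 UMIs) in control against 23.7 CPM (21.7 to 25.9, 520 UMIs) in JQ1, and pericytes and smooth muscle cells 30.9 CPM (18.0 to 49.5, 17 UMIs) and 18.1 CPM (13.1 to 24.4, 43 UMIs). Endothelial cells and keratinocytes, each as a whole class, stayed below 7 CPM in both libraries. Most of the JQ1 endothelial UMIs lay in the cluster led by Ccl21a and Mmrn1, at 30.6 CPM (56 UMIs). In control that cluster was at 9.76 CPM (2 UMIs).

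C3, on which all routes converge, was at 1433 CPM (1393 to 1474) in control against 1251 CPM (1236 to 1266) in JQ1 fibroblasts. Neutrophils held the next level, 247 CPM (216 to 282) and 275 CPM (251 to 300.0), and the fibroblast level was 5.79 times the neutrophil level in control and 4.56 times in JQ1. Macrophages followed with 61.5 CPM (32.7 to 105, 13 UMIs) and 127 CPM (103 to 156, 92 UMIs). Endothelial cells, at 15.8 CPM (11.0 to 22.0) and 20.5 CPM (17.8 to 23.5), did not differ from Schwann cells beyond counting error in JQ1, and JQ1 T cells lay lower. Most of it lay in the cluster with lymphatic markers (Ccl21a, Mmrn1; 42 control and 399 JQ1 cells), at 141 CPM in control (29 UMIs) against 78.8 CPM in JQ1 (144 UMIs), a ratio of 0.557 (0.372 to 0.861). Keratinocytes were at 4.84 CPM (4.42 to 5.29) and 7.90 CPM (6.68 to 9.27). Their JQ1 level did not differ from that of JQ1 T cells beyond counting error. Their control level was under the 5.74 CPM that a count of 0 in the shallower control T cells allows. After each cell was thinned to 1000 UMIs, leaving out 39 control and 106 JQ1 fibroblasts with fewer, 57.3% (53.8 to 60.7) of control and 49.7% (48.3 to 51.2) of JQ1 fibroblasts held a C3 UMI. Without thinning the shares were 72.7% and 70.1%, and in thinned T cells they were 0% and 1.49% (0.486 to 3.45).

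Of the alternative route, Cfb was counted at low level in fibroblasts, with 13.8 CPM (10.1 to 18.4, 46 UMIs) in control against 18.2 CPM (16.5 to 20.1, 399 UMIs) in JQ1. Endothelial cells held 2.71 CPM (0.994 to 5.89, 6 UMIs) and 5.28 CPM (3.95 to 6.90, 53 UMIs). Cfd, also called adipsin and known for high expression in fat cells, was practically undetected, with 1 UMI in kept control cells and 2 UMIs in kept JQ1 cells. No cell passed the gate for adipocytes in either library, so that Cfd in fat cells was not analysed here.

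Serping1, the C1 inhibitor, was at 1780 CPM (1735 to 1826) in control against 1775 CPM (1758 to 1793) in JQ1 fibroblasts. The difference was within counting error, with a ratio of 0.997 (0.970 to 1.03). Pericytes and smooth muscle cells were at 511 CPM (453 to 574) and 753 CPM (719 to 789), and endothelial cells at 107 CPM (93.8 to 121) and 125 CPM (118 to 132). Among endothelial cells the level was highest in the cluster led by Ccl21a and Mmrn1, genes of lymphatic vessels, with 571 CPM in 42 control and 395 CPM in 399 JQ1 cells. In the cluster led by Flt1 and Plvap it was 14.1 and 33.9 CPM, the JQ1 value inside the counting interval of JQ1 T cells. Keratinocytes held 1.22 CPM (1.01 to 1.46) in control against 12.6 CPM (11.0 to 14.3) in JQ1, the latter below the shallower JQ1 T cells.

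C3ar1, the receptor of the C3a fragment, was at 236 CPM (175 to 312, 50 UMIs) in control against 268 CPM (232 to 309, 194 UMIs) in JQ1 macrophages. It did not exceed 4 CPM in fibroblasts, endothelial cells, keratinocytes or neutrophils. C5ar1, the receptor of C5a, was at 747 CPM (692 to 805) in control against 562 CPM (527 to 597) in JQ1 neutrophils and at 137 CPM (91.8 to 197, 29 UMIs) and 210.2 CPM (178 to 246, 152 UMIs) in macrophages. In neither library did fibroblasts, endothelial cells or keratinocytes exceed 1.20 CPM of C5ar1. Fibroblasts, the class with the highest C3, thus held little of either receptor. Neutrophils and macrophages, the next classes by C3 level, held C3 and C5ar1, and macrophages also held C3ar1.

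**Figure D2:**
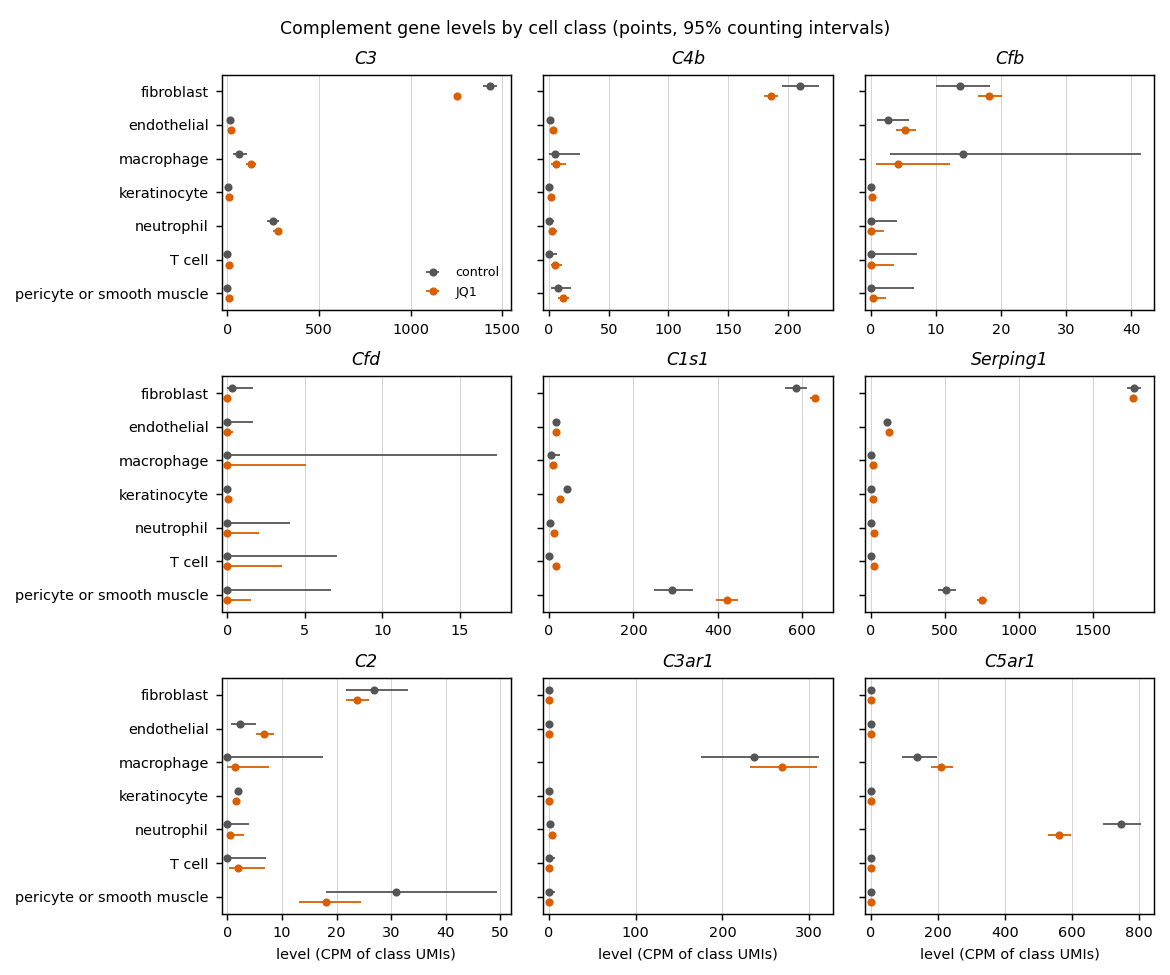
Level of each of the 9 genes (horizontal axis, CPM of the UMIs of the class, 1 scale per panel) in 7 cell classes of the control (grey) and JQ1 (orange) library; points are levels and lines 95% counting intervals. Fibroblasts lead the C3, C1s1 and Serping1 panels in both libraries, macrophages the C3ar1 panel and neutrophils the C5ar1 panel.

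JQ1 was compared with control in each class. A gene was measured if the libraries together held 50 or more of its UMIs and the higher level reached 10 CPM, and it was called higher or lower from 1.5-fold on. In fibroblasts 6 of the 9 members were measured, and 0 were higher and 0 lower; over all 8961 measured genes, 5.68% were higher and 2.77% lower, 8.45% in all. C3 stood at a ratio of 0.873 (0.846 to 0.900) and C4b at 0.884 (0.816 to 0.959), both below 1 by more than counting error and inside 1.5-fold. C1s1 stood above 1 (at 1.01 with size factors, which put Serping1 at 0.934), and Cfb at 1.32 (0.973 to 1.84) and C2 at 0.881 (0.703 to 1.11) had intervals that include 1. The median log2 ratio was -0.09 over the 6 members and 0.07 over all measured genes. In endothelial cells 3 members were measured and 0 were higher or lower, against 8.22% and 3.15% of all measured genes. Serping1 there had a ratio of 1.17 (1.01 to 1.35) and C3 of 1.30 (0.904 to 1.92). The cluster with lymphatic markers, 42 of 496 control and 399 of 2052 JQ1 endothelial cells, had ratios below 1, at 0.691 (0.568 to 0.848) for Serping1 and 0.557 for C3. Serping1 was at 0.929 (0.733 to 1.19) in the Selp cluster, 0.835 (0.501 to 1.46) in the cluster led by Ptprb and 2.40 (1.32 to 4.78) in the Flt1 cluster. The JQ1 level in the Flt1 cluster, 33.9 CPM, lay inside the counting interval of Serping1 in JQ1 T cells. The part of free RNA in that ratio was not tested.

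In macrophages 3 members were measured, of which 2 were higher and 0 lower, against 13.9% and 10.6% (24.5% in all) of all measured genes. C3 had a ratio of 2.07 (1.15 to 4.04), C5ar1 of 1.53 (1.03 to 2.37) and C3ar1 of 1.14 (0.828 to 1.58). The control values rest on 58 cells, and the C5ar1 ratio was 1.17 with a stricter gate. In cells thinned to 1000 UMIs, 15.4% (6.88 to 28.1) of control and 14.96% (9.25 to 22.4) of JQ1 macrophages held a C5ar1 UMI, against 27.6% and 45.6% without thinning. Neutrophil markers summed over the class to 804 CPM in control and 898 CPM in JQ1 macrophages. Dendritic markers stood at 728 and 418 CPM and keratinocyte markers at 416 and 84.4 CPM. Gland markers, at 18.9 and 592 CPM, and fibroblast markers, at 23.6 and 129 CPM, went the other way. The macrophage markers themselves summed to 5442 and 6261 CPM. The part of these differences in the ratios was not tested.

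In keratinocytes 2 members were measured, 1 higher and 1 lower, against 10.9% and 4.75% of all measured genes. Serping1 was higher, with a ratio of 10.3 (8.26 to 12.9). Its JQ1 level of 12.6 CPM was below the 23.0 CPM of JQ1 T cells. Those T cells were shallower, at a median of 2505 against 11316 UMIs, so the comparison cannot tell free RNA from expression. C1s1 was lower, with a ratio of 0.609 (0.554 to 0.669). The types of keratinocyte differed between the libraries: a cluster led by BC037156 and Ppbp held 860 control and 1 JQ1 cell. Within clusters present in both, C1s1 was at 32.6 and 29.99 CPM in the Krt15 cluster, a ratio of 0.919 (0.792 to 1.06), and at 37.1 and 34.0 CPM in the Krt42 cluster, a ratio of 0.915 (0.705 to 1.17). In the Mt4 cluster, led also by Krt13, it was higher in JQ1, at 5.79 and 13.9 CPM. A ratio as low as that of the whole class was thus not seen within these 3 clusters.

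In neutrophils 2 members were measured and 0 were higher or lower, against 24.9% and 14.0% of all measured genes. C3 had a ratio of 1.11 (0.946 to 1.30) and C5ar1 of 0.752 (0.682 to 0.830). A cluster led by Camp and Ngp, granule genes of developing neutrophils, held 5 control and 146 JQ1 neutrophils. Without it C3 was at 248 CPM in control against 187 CPM in JQ1, a ratio of 0.753, and C5ar1 at 747 and 711 CPM, a ratio of 0.951. The C3 ratio therefore lies on either side of 1 with and without those cells, which held 379 CPM of C3 in JQ1.

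**Figure D3:**
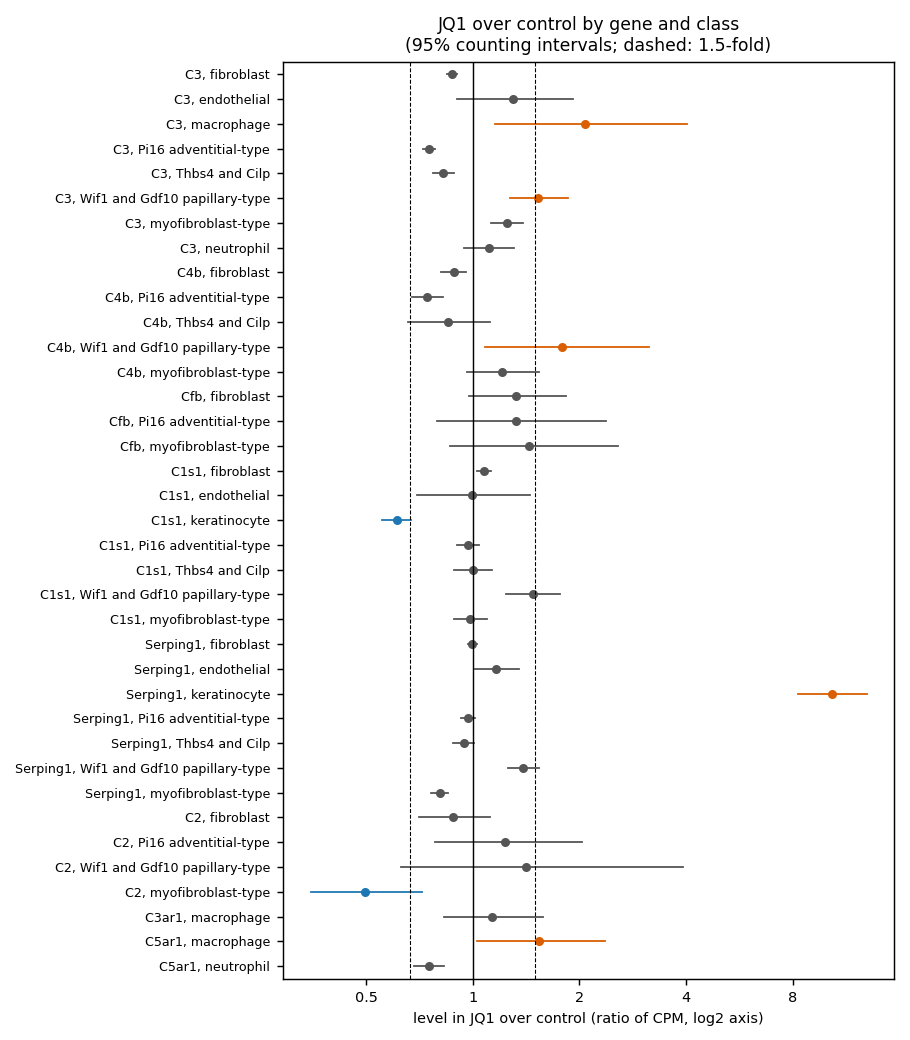
Ratio of the JQ1 to the control level (horizontal axis, log2 scale) for each gene and class with enough UMIs and a count above 0 in both libraries; lines are 95% counting intervals, dashed lines mark 1.5-fold, orange is higher and blue lower. C3 and C4b lie below 1 in Pi16 adventitial-type and above 1 in Wif1 and Gdf10 papillary-type fibroblasts.

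Fibroblasts were divided by subtype markers into Pi16 adventitial-type cells (292 control, 1690 JQ1), Thbs4 and Cilp cells (201 and 817), Wif1 and Gdf10 papillary-type cells (74 and 885), myofibroblast-type cells (140 and 598) and others (142 and 669). Subtypes are ranges of a marker score, and 213 of 849 control and 1381 of 4659 JQ1 fibroblasts lay near a cut. C3 was ordered by subtype in both libraries. In control it was 2695 CPM (2596 to 2796) in Pi16 adventitial-type cells, 1633 CPM (1533 to 1738) in Thbs4 and Cilp cells, 433 CPM (394 to 475) in myofibroblast-type cells and 362 CPM (299 to 434) in Wif1 and Gdf10 papillary-type cells. In JQ1 it was 2023 CPM (1992 to 2055), 1348 CPM (1308 to 1389), 541 CPM (519 to 563) and 553 CPM (531 to 577) in the same order of subtypes. The last pair did not differ beyond counting error in either library. The Pi16 level was 6.23 times the myofibroblast level in control (5.63 to 6.90) and 3.74 times in JQ1 (3.59 to 3.91).

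C4b had its highest level in the same cells. Pi16 adventitial-type cells held 444 CPM (404 to 486) in control against 330.2 CPM (318 to 343) in JQ1, and the other 3 subtypes were between 49.5 and 116 CPM. C1s1 was also highest there, at 831 CPM (776 to 888) and 806 CPM (787 to 827), but the subtypes lay closer together, with myofibroblast-type cells at 422 CPM (383 to 464) and 415 CPM (396 to 434). Serping1 was at 2212 CPM (2123 to 2305) and 2144 CPM (2112 to 2177) in Pi16 adventitial-type cells, and no subtype was below 1281 CPM. Cfb and C2 had wide intervals: C2 was highest in control myofibroblast-type cells at 45.5 CPM (33.4 to 60.5, 47 UMIs).

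**Figure D4:**
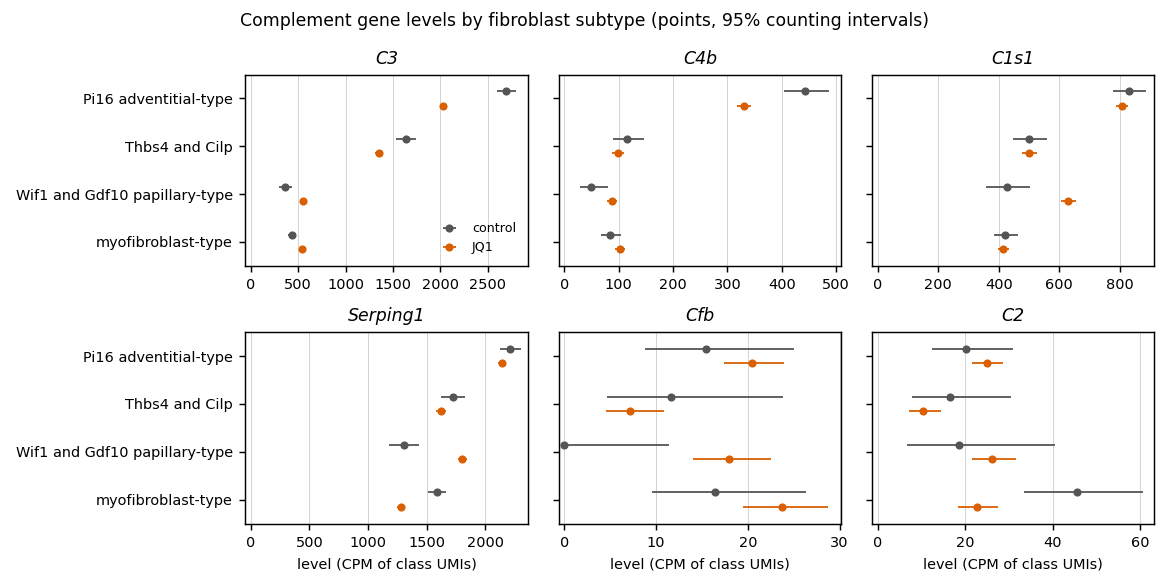
Level of 6 genes (horizontal axis, CPM, 1 scale per panel) in 4 fibroblast subtypes of the control (grey) and JQ1 (orange) library, with 95% counting intervals. C3 is highest in Pi16 adventitial-type cells, at 2695 CPM in control against 2023 CPM in JQ1, and lowest in the Wif1 and Gdf10 papillary-type and myofibroblast-type cells.

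Between libraries the subtypes differed in direction. In Pi16 adventitial-type cells the C3 ratio was 0.751 (0.721 to 0.782) and the C4b ratio 0.744 (0.674 to 0.823), while C1s1 at 0.971 (0.904 to 1.04) and Serping1 at 0.969 (0.928 to 1.01) stayed near 1. All 6 measured members were inside 1.5-fold there, where 9.16% of all measured genes were higher and 5.08% lower (14.2% in all). Of thinned cells, 78.01% (72.7 to 82.7) in control against 67.0% (64.7 to 69.2) in JQ1 held a C3 UMI, against 88.0% and 86.8% without thinning. Thbs4 and Cilp cells had a C3 ratio of 0.825 (0.770 to 0.885), and 0 of 4 measured members were higher or lower, against 13.7% and 4.46% of genes.

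In Wif1 and Gdf10 papillary-type cells 3 of 6 measured members were higher and 0 lower, against 21.3% and 8.88% (30.2% in all) of all measured genes. C3 had a ratio of 1.53 (1.27 to 1.86) and C4b of 1.78 (1.08 to 3.15), the latter from 16 control UMIs. Cfb had 0 UMIs in the control and 74 in the JQ1 cells of this subtype (17.9 CPM), so that it was measured through the JQ1 count alone. It was 1.93-fold higher when the control count is set to 3, and the lower bound of its ratio interval was 1.53. C1s1 at 1.48 (1.24 to 1.77) and Serping1 at 1.39 (1.26 to 1.53) were also above 1. The subtype was 8.72% of control and 19.0% of JQ1 fibroblasts, and its control values come from 74 cells. With each cell weighted equally, the C3 ratio was 1.23, the C4b ratio 1.43 and the Cfb ratio 1.44, all under 1.5. In myofibroblast-type cells 1 of 6 measured members was lower and 0 higher, against 6.09% and 15.1% (21.2% in all) of genes. That member was C2, with a ratio of 0.497 (0.348 to 0.719), which was 0.939 with each cell weighted equally. C3 there was at 1.25 (1.13 to 1.38) and Serping1 at 0.807 (0.764 to 0.853).

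The change in the mix of subtypes was measured apart from the change within them. Levels of the 4 subtypes and of the other fibroblasts were averaged by their shares of cells. With the control shares in both libraries, the ratio was 0.825 for C3, 0.813 for C4b, 1.01 for C1s1, 0.976 for Serping1, 1.23 for Cfb and 1.003 for C2. With each library's own shares it was 0.804 for C3, 0.820 for C4b, 1.04 for C1s1 and 0.998 for Serping1, so that the different mix moved these values little. In the joint clustering, C3 was also lower in JQ1 within the cluster led by Apod, at 2527 and 2129 CPM. Within the cluster led by Thbs4 it was at 1675 and 1293 CPM. No levels were taken within the fibroblast clusters led by Wif1 (93 control and 734 JQ1 cells) and by Mmp3 (90 and 388).

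Of 46 other complement genes that were considered, 45 were listed in the files. In fibroblasts 10 were measured, 1 was higher and 0 lower, against 5.68% and 2.77% of all measured genes. That gene was Masp1, a protease of the lectin route, at 485 CPM in control against 735 CPM in JQ1, a ratio of 1.52 (1.44 to 1.60). Its interval reaches below 1.5-fold. By subtype the ratio was 1.53 in Pi16 adventitial-type, 1.36 in Thbs4 and Cilp, 1.69 in Wif1 and Gdf10 papillary-type and 1.05 in myofibroblast-type cells. The part of the subtype mix in the class ratio was not tested. C1ra, the partner protease of C1s1, had a ratio of 0.926 (0.854 to 1.01). In Pi16 adventitial-type cells 1 of 10 measured genes was higher and 3 were lower, against 9.16% and 5.08% of all. The lower genes were regulators, Cd55, which speeds the decay of the C3-cleaving enzymes, at 0.594 (0.501 to 0.707), Clu, an inhibitor of the terminal complex, at 0.525 (0.440 to 0.628) and Vtn, another such inhibitor, at 0.589 (0.410 to 0.866), while Masp1 was higher. In Wif1 and Gdf10 papillary-type cells 4 of 9 measured genes were higher and 1 lower, against 21.3% and 8.88% of all. Masp1 was at 755 CPM and 1279 CPM, a ratio of 1.69 (1.49 to 1.93), and Clu had a ratio of 1.55 (1.07 to 2.32). The others rest on few control UMIs: Cd59a had 1, and the intervals of Cd55, at 2.30 (0.964 to 7.19), and of Csmd1, the lower gene, at 0.574 (0.244 to 1.65), include 1. In Thbs4 and Cilp cells 0 of 8 were higher or lower, against 13.7% and 4.46% of all. In myofibroblast-type cells 0 of 8 were higher and 1, Cd59a, lower, against 15.1% and 6.09% of all.

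In endothelial cells 1 of 7 measured genes was higher and 0 lower, against 8.22% and 3.15% of all. That gene was Colec12, a scavenger receptor with a collectin domain, with a ratio of 2.16 (1.22 to 4.16). Most of its UMIs lay in the cluster with lymphatic markers. Within that cluster Colec12 was at 53.7 CPM in control (11 UMIs) against 51.99 CPM in JQ1 (95 UMIs), a ratio of 0.969 (0.518 to 2.01), so that the higher level of the whole class was not seen there. In macrophages 4 of 9 were higher and 2 lower, against 13.9% and 10.6% of all. The C1q chains C1qa, C1qb and C1qc, which recognise antibody and dying cells, had ratios of 1.71 (1.55 to 1.89), 1.65 (1.495 to 1.81) and 1.52 (1.37 to 1.70), and the integrin chain Itgb2 of 2.46 (1.43 to 4.52). The marker sums of the macrophage class differed between the libraries, as given above, and their part in these ratios was not tested. Cfp, properdin, which stabilises the alternative enzyme, was lower at 0.572 (0.339 to 0.991), as was C1qbp at 0.585 (0.380 to 0.918). In keratinocytes 1 of 5 was higher and 0 lower, against 10.9% and 4.75% of all; it was Clu, at 1.54 (1.44 to 1.64). In neutrophils 3 of 10 were higher and 1 lower, against 24.9% and 14.0% of all, in a class with 5 control and 146 JQ1 cells of the Camp and Ngp cluster. Fcnb, a ficolin of myeloid cells, had 0 control and 152 JQ1 UMIs, Cd55 had 3 control and 51 JQ1 UMIs, C1qbp was at 1.84 (0.954 to 3.84), an interval that includes 1, and Clu was lower at 0.131 (0.0704 to 0.229).

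The patterns of the members across cells were compared over 28 points, each a class or subtype in 1 library with at least 50 cells, on log2(CPM + 1). The points share libraries, the subtypes are parts of the fibroblast class, and the correlations are descriptions. Among the members, Serping1 and C2 (Pearson r = 0.94) and C1s1 and Serping1 (0.94) were most alike, C3 and C4b stood at 0.76 and C3ar1 and C5ar1 at 0.71. Among 13608 genes, the one most like C3 was Saa3 (0.92), an acute-phase protein. Bgn, a matrix proteoglycan, was most like Serping1 (0.99), Igfbp4 most like C1s1 (0.97) and Abca8a most like C4b (0.96). Lhfp was most like C2 (0.97) and Tmem106a most like Cfb (0.88). Ly86, a myeloid surface protein, was most like C3ar1 (0.98), followed among named complement genes by C1qc (0.96), and F10 most like C5ar1 (0.99).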

How the data were processed

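Single-cell RNA was measured with the 10x 3' v3.1 chemistry in 1 control and 1 JQ1 library. The authors deposited raw UMI counts per gene and barcode. Per the submitters' processing notes the build was mm10 and the tools were Seurat 4.0.0 and Cell Ranger 3.1.0; no annotation release is named there. A cell needed 200 or more genes and less than 20% mitochondrial UMIs, and Scrublet (scanpy 1.11.5) removed 119 control (1.44%) and 424 JQ1 doublets (2.93%). Each cell took the class with the highest share of markers with a UMI, of 15 classes, if at least 3 markers were seen and the share was at least 1.5 times the next; fibroblast subtypes needed 2 markers. For the clusters named in the text, both libraries were clustered together (leidenalg 0.10.2, 2000 variable genes, 30 components, 15 neighbours, resolution 1, seed 0). For each class of a library, counts were added up and divided by the class total to give CPM, with exact Poisson, Clopper-Pearson and conditional ratio intervals from scipy 1.17.1. The ratio step was tested on simulated data. With 1 library per group no test was made. A count of 0 was set to 3 counts for a call.

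The 9 members are named in every class; other complement genes are named past 1.5-fold with 50 UMIs and 10 CPM, at most 8 per class, with C1ra in fibroblasts, the Masp1 levels and clusters added after values were seen. One gene of the list is not reported here and is left out of its counts. The 3 genes with the highest correlation were taken as most like a member. The members, markers and lists were chosen with earlier results of these data known. Alternatives changed the cell filter, doublets, gate, clusters, scaling, minimum level and free RNA.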

Additional observations from a re-analysis of the deposited data

Results flagged for a closer look

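The same gene lay above 1 in one kind of cell and below 1 in another, beyond counting error in both, for 5 members. These are ratios of JQ1 to control from 1 library each, and the differences between the cell types were not tested. C3 was at 2.07 in macrophages and 0.751 in Pi16 adventitial-type fibroblasts. C4b was at 1.78 in Wif1 and Gdf10 papillary-type and 0.744 in Pi16 adventitial-type fibroblasts. C1s1 was at 1.48 in Wif1 and Gdf10 papillary-type fibroblasts and 0.609 in keratinocytes, where it was 0.919, 0.915 and 2.40 within the Krt15, Krt42 and Mt4 clusters. Serping1 was at 10.3 in keratinocytes, with a JQ1 level in CPM below that of the shallower T cells, and 0.807 in myofibroblast-type cells. C5ar1 was at 1.53 in macrophages and 0.752 in neutrophils, where it was 0.951 without the Camp and Ngp cluster.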

How the results depend on the processing

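No paired analysis was possible because each group is 1 library. The counts of members past 1.5-fold moved as follows. Except where a reason is given, the cause was not tested. Without a minimum level they were 2 lower in fibroblasts (0 in the report), 3 higher and 2 lower in endothelial cells, 2 lower in macrophages, and 7 higher in keratinocytes. Those counts take in members with very few UMIs, where setting a count of 0 to 3 can reverse the direction. C3ar1 was called lower in fibroblasts on 0 control and 3 JQ1 UMIs, and higher in keratinocytes on 3 and 0. C3ar1 in endothelial cells and C2 in macrophages, each with 0 control and 1 JQ1 UMI, were called lower. With classes taken from clusters they were 1 higher in endothelial cells, 4 higher in macrophages, and 2 higher and 0 lower in keratinocytes. The macrophage count of 2 higher was 1 with the stricter cell filter, 1 with the stricter gate and 0 with at least 200 UMIs. That last minimum leaves out both C3 (13 control and 92 JQ1 UMIs) and C5ar1 (29 and 152), so the 0 does not bear on their ratios. The keratinocyte count of 1 higher was 0 with the stricter gate and 0 with free RNA subtracted, and 2 with the looser gate. C1s1 in keratinocytes turned to 2.40 within the Mt4 cluster. C3 in endothelial cells was 0.845 with free RNA subtracted. Size factors moved the median of all genes by 0.18 on the log2 scale in keratinocytes and 0.10 in neutrophils and Wif1 and Gdf10 papillary-type cells. C3 in fibroblasts ranged from 0.789 to 0.886 over all alternatives, and C3 in Pi16 adventitial-type cells from 0.724 to 0.766. In macrophages, with 58 control cells, depth limits what can be said: C5ar1 ranged from 1.17 to 2.66 and C3ar1 from 0.904 to 1.94.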
